A study of Homo sapiens with 4 samples.

Results

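In SNU638 cells treated with IFN‐γ, 22 expressed protein-coding genes were at least 2.5 times higher in replicate 2 than in replicate 1, both with the control vector and with the YTHDF1 vector. They were selected on these measured values themselves. Counts were scaled to a library total of 1000000 (CPM). Genes with at least 10 CPM in all 4 libraries were taken as expressed. Both replicate 2 to replicate 1 ratios had to reach 2.5. The 22 genes are 0.241% of the 9138 expressed protein-coding genes, among 46427 genes listed in all. The difference between the replicate numbers is therefore a description with no test, and the difference between the vectors was the measure left to test.

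SNU638 is an established human gastric cancer cell line. Cells with the control vector and cells with the vector for overexpression of YTHDF1, a reader of N6-methyladenosine in RNA, were sequenced as polyadenylated RNA in 2 biological replicates each. Both groups were kept without serum for 24 h and then given IFN‐γ at 10 ng/ml for 8 h according to the labels, whereas the figure legends of the study give 24 h, so no library came from untreated cells. The methods of the study describe plasmid transfection and do not say which share of the cells took up a vector. The labels do not say whether a replicate number stands for a shared day, passage or batch, and the spread between replicates may also be technical.

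IFN‐γ binds its receptor on the cell surface and switches on a first wave of genes in the nucleus. Among them is the transcription factor IRF1, which then acts on further interferon-stimulated genes. In epithelial tumour cells this program covers guanylate-binding proteins, antigen presentation, tryptophan catabolism and a set of antiviral genes shared with type I interferon. Sterol synthesis is under separate control, by SREBP transcription factors that are released from the membrane when sterols run low.

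Totals ran from 57398137 to 60864942 counts per library. YTHDF1 itself had 83.4 and 79.4 CPM in control replicates 1 and 2 and 16569 and 2607 CPM in YTHDF1 replicates 1 and 2, so the overexpressed transcript differed 6.36-fold between the replicate numbers. The numbers also stood apart in other genes, with 142 protein-coding genes at 10 CPM or more in both replicate 1 libraries and under 1 CPM in both replicate 2 libraries, against 1 gene, ERVV-2, in the reverse direction. Among the 142 was VCAN, the matrix proteoglycan versican, with 235 and 254 CPM in control and YTHDF1 replicate 1 and 0.209 and 0.674 CPM in the replicates numbered 2. Of 28 mesenchymal and stromal markers, 3 were expressed. The 28 together summed to 472 and 493 CPM in replicate 1 and 151 and 152 CPM in replicate 2, where VCAN made most of the difference. Of the 3 expressed markers, 2 were higher in replicate 2 with both vectors, and the median ratio of the 3 was 1.44. As expressed means 10 CPM in all 4 libraries, VCAN and any other marker lost in replicate 2 are left out of these 3. CDH2, COL1A2 and PDGFRA were at 0 in all libraries. The 17 epithelial markers summed to 4833 and 4591 CPM in replicate 1 and 6928 and 7253 CPM in replicate 2, a gap carried by KRT8 and KRT18. Of the 12 expressed, 6 were higher in replicate 2 with both vectors, with a median ratio of 1.03, and EPCAM had ratios of 0.893 and 0.841. The labels name SNU638 for all 4 libraries, but whether both replicate numbers hold the same stock of cells was not tested, so the ratios of the 22 genes compare libraries as labelled. The part of these differences in the results on the 22 genes was not tested.

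Across the 9138 expressed genes the ratio of replicate 2 to replicate 1 had a median of 0.979 with the control vector and 0.985 with the YTHDF1 vector, and 5th to 95th percentiles of 0.654 to 1.45 and 0.653 to 1.46. A ratio of 2.5 was reached by 29 genes with the control vector and by 28 with the YTHDF1 vector, and 22 of them were the same genes. The ratios of the 22 ran from 2.53 to 3.95 and from 2.55 to 3.90. In the opposite direction, 55 expressed genes (0.602%) were at least 2.5 times lower in replicate 2 with both vectors. PRSS23, OAS2 and LCP1 lay just inside the limit, with smaller ratios of 2.53, 2.55 and 2.58. GBP2, AACS and KRT20 lay just outside, with ratios of 2.47 and 2.84, 2.67 and 2.44, and 2.64 and 2.44 for the control and YTHDF1 vector.

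**Figure D1:**
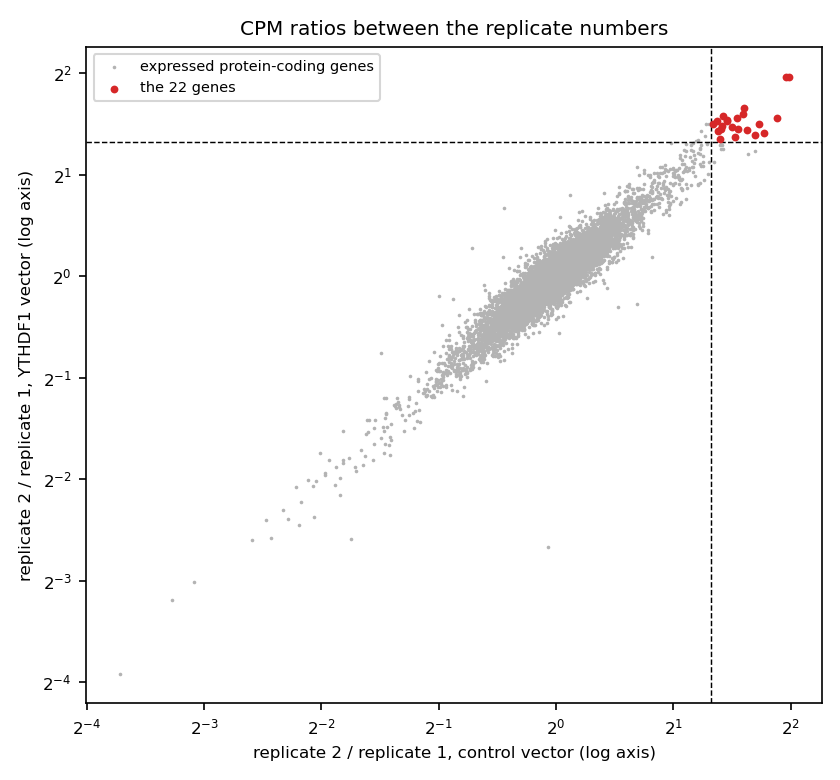
CPM ratio of replicate 2 to replicate 1 with the control vector (x) and with the YTHDF1 vector (y), both on log axes, for the 9138 expressed protein-coding genes (grey), with the 22 genes in red. The dashed lines mark the ratio of 2.5 by which the 22 were chosen, and the red points reach 3.95 and 3.90.

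Of the 22 genes, 9 are known to be induced by interferons. They comprise 3 guanylate-binding proteins, the class II chaperone CD74, the tryptophan-degrading enzyme IDO1 and 4 antiviral genes. The guanylate-binding proteins are GTPases that assemble on pathogen membranes and assist inflammasome activation. GBP5 had 83.7 and 331 CPM in control replicates 1 and 2 and 84.5 and 329.6 CPM in YTHDF1 replicates 1 and 2, the widest gap of all 22 genes by the smaller of the ratios. GBP1 had 70.4 and 213 CPM with the control vector and 67.4 and 205 CPM with the YTHDF1 vector. GBP4 had 214 and 590 CPM with the control vector and 202 and 584 CPM with the YTHDF1 vector. For all 3 genes both replicates numbered 2 were high and both numbered 1 were low, so the vector groups overlapped. The rule puts replicate 2 above replicate 1 within each vector for all 22 genes. This order and overlap, here and below, are therefore not a result about the vector. The related GBP2 had 44.6, 110.1, 38.9 and 110.2 CPM in the same order and missed the limit with the control vector alone. GBP3 had ratios of 2.07 and 1.87, while GBP6 and GBP7 were under 1 CPM in every library.

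CD74, the invariant chain that guides class II molecules to the peptide-loading compartment, had 27.3 and 106 CPM in control replicates 1 and 2 and 25.8 and 100.1 CPM in YTHDF1 replicates 1 and 2. IDO1, which converts tryptophan towards kynurenine and is known for restraining T cells, had 98.5 and 263 CPM with the control vector and 93.2 and 261 CPM with the YTHDF1 vector. In both genes the vector groups overlapped and the replicates numbered 2 were the higher ones.

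The antiviral genes are IFI27, IFI44L, OAS2 and DHX58. IFI27, an interferon-induced protein of mitochondria, had 11.7 and 35.6 CPM in control replicates 1 and 2 and 10.3 and 32.5 CPM in YTHDF1 replicates 1 and 2. IFI44L, an interferon-induced protein with antiviral activity, had 10.6 and 36.3 CPM with the control vector and 11.2 and 29.8 CPM with the YTHDF1 vector. Their replicate 1 values lay close to the limit of 10 CPM, and both vector groups overlapped. OAS2, an oligoadenylate synthetase that activates RNase L on sensing double-stranded RNA, had 52.3 and 138 CPM with the control vector and 52.8 and 135 CPM with the YTHDF1 vector. DHX58, a helicase of the RIG-I family, had 10.7 and 33.1 CPM with the control vector and 11.3 and 30.6 CPM with the YTHDF1 vector. In each of the 4 genes both replicates numbered 2 lay above both numbered 1.

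**Figure D2:**
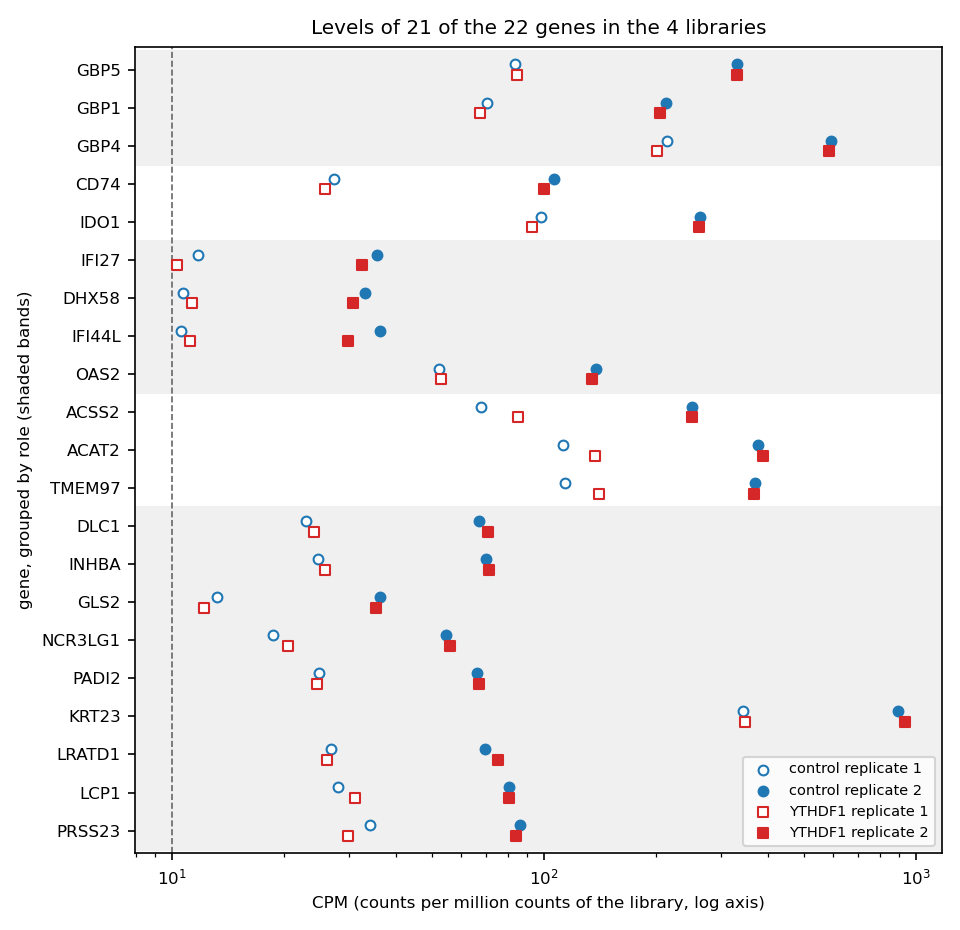
CPM of 21 of the 22 genes (log x axis) in control replicates 1 and 2 (blue circles, open and filled) and YTHDF1 replicates 1 and 2 (red squares, open and filled), with shaded bands for guanylate-binding proteins, CD74 and IDO1, antiviral genes, sterol and acetyl-CoA genes and other roles. The filled symbols lie to the right of the open ones in every row, as the choice of genes requires, and the vectors lie close to each other within a replicate number, from 10.3 CPM for IFI27 to 936 CPM for KRT23.

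Wider lists written by hand place these genes among the rest of the response. Of 80 expressed genes of the IFN‐γ list, 5 were among the 22, namely GBP1, GBP4, GBP5, CD74 and IDO1, and 64 were higher in replicate 2 with both vectors, with a median ratio of 1.24. Of 43 expressed antiviral interferon-stimulated genes, 4 were among the 22 and 28 were higher in replicate 2 with both vectors, with a median ratio of 1.19. Over all 9138 expressed genes, 3613 were higher in replicate 2 with both vectors and the median ratio was 0.982. IRF1 had ratios of 1.25 and 1.28.

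**Figure D3:**
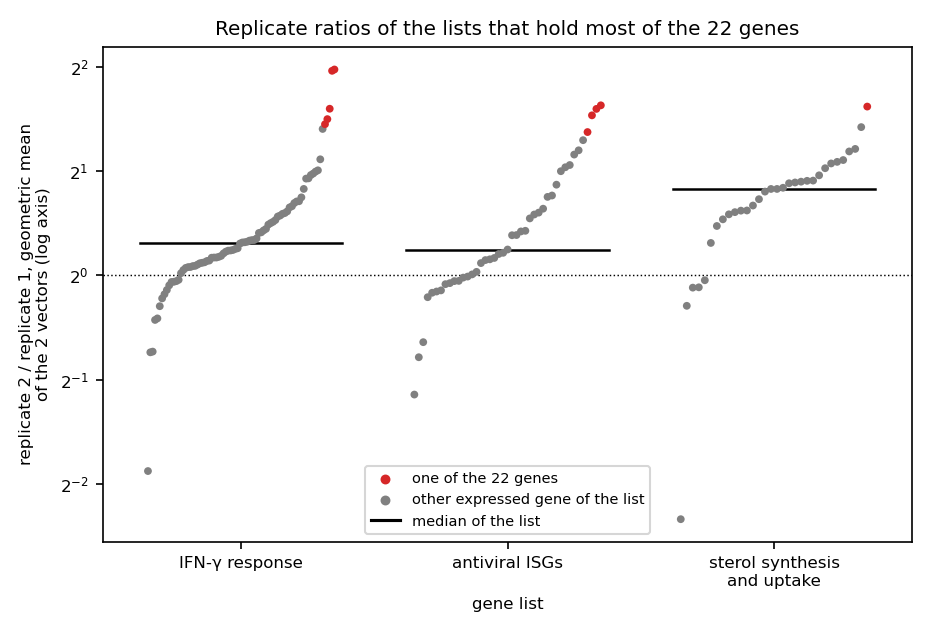
Ratio of replicate 2 to replicate 1 (log y axis, geometric mean of both vectors) for the expressed genes of the IFN‐γ response, antiviral and sterol lists, ordered by value within each list, with genes of the 22 in red and list medians as black lines. The medians are 1.24, 1.19 and 1.78. The red points sit at the upper end, as the choice of genes requires, of lists whose other genes spread down to and below a ratio of 1.

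The promoters of the interferon-induced genes are shown because these genes were high in the same libraries. Those with an available promoter share a sequence feature that the rule did not use, searched for once the genes were known. RefSeq promoters of GRCh38.p14, from 250 bases before to 50 bases after the annotated start, were available for 14 of the 22 genes, and 5 of these 14 are interferon-induced. The core of the interferon-stimulated response element, GAAANNGAA on either strand, occurred in the promoters of all 5, which were CD74, IFI27, GBP1, GBP4 and IFI44L, and in 0 of the 9 others. It occurred in 6.42% of the promoters of 7649 expressed genes and in 8.29% of 27305 promoters in all. The 5 were grouped by their known induction by interferons. The share in interferon-stimulated genes outside the 22 is not given here, so these counts do not set the 22 apart from such genes. The stretches below are 100 bases on the strand of the gene, 5′ to 3′, with matches in capitals, at chr5:150413028-150413127 (minus strand) for CD74, chr14:94110584-94110683 (plus) for IFI27, chr1:89065280-89065379 (minus) for GBP1, chr1:89198937-89199036 (minus) for GBP4 and chr1:78620239-78620338 (plus) for IFI44L.
CD74: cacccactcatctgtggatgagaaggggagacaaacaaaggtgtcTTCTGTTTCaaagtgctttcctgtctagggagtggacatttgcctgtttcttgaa
IFI27: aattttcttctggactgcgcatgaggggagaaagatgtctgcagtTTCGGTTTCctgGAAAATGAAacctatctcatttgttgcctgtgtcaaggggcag
GBP1: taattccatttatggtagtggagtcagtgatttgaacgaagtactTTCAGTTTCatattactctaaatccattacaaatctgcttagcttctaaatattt
GBP4: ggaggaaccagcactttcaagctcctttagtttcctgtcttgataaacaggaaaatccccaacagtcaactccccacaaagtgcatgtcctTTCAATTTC
IFI44L: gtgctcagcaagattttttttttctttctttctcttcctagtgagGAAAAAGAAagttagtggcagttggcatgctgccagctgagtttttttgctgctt

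The IFI27 stretch holds 2 matches that lie close together on opposite strands, and the match of GBP4 spans the annotated start. GBP1 and IFI44L each have a second match in their 300 bases that lies outside the stretch shown. The gamma-activated site, searched as TTCNNNGAA, occurred in 1 of the 14 promoters, that of IFI27, and in 6.45% of the promoters of expressed genes. Of the other motifs searched on both strands, the GC box GGGCGG was in 9 of 14 against 73.2% of the promoters of expressed genes, the NF-kB pattern GGNNTTNCC in 6 against 18.97%, the CCAAT box in 5 against 37.6% and the TATA box TATAAA in 3 against 4.67%. A match is a description of the letters in this window and not of binding.

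The genes were not gathered at a single place in the genome. They lay on 12 chromosomes, and 5 of the 22 were on chromosome 1, which holds 10.3% of the expressed genes. GBP1, GBP4 and GBP5 lie there in the guanylate-binding protein cluster, with GBP2 and GBP7 between GBP1 and GBP4, at 89052319 to 89065208, 89181144 to 89198942 and 89256189 to 89272860 of GRCh38.p14, and IFI44L and PADI2 are the other two.

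ACAT2, TMEM97 and ACSS2 belong to sterol and acetyl-CoA metabolism. ACAT2, the cytosolic thiolase that joins acetyl-CoA units at the entry to the mevalonate pathway, had 113 and 376 CPM in control replicates 1 and 2 and 137 and 387 CPM in YTHDF1 replicates 1 and 2. TMEM97, a sterol-regulated membrane protein with a part in cholesterol transport, had 114 and 369.8 CPM with the control vector and 140.3 and 367 CPM with the YTHDF1 vector. ACSS2, which makes acetyl-CoA from acetate in the cytosol and nucleus, had 67.6 and 249.5 CPM with the control vector and 85.1 and 250.2 CPM with the YTHDF1 vector. In all 3 the replicates numbered 2 were high and nearly equal between the vectors, while among those numbered 1 the YTHDF1 library was the higher one. Reads of ACAT2 could be split with TCP1 and SOD2, which overlap it, and their ratios of replicate 2 to replicate 1 were 0.908 and 0.904 for TCP1 and 1.62 and 1.69 for SOD2. TMEM97 overlaps IFT20, which had ratios of 0.956 and 1.07.

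ACAT2 was the 1 gene of the sterol synthesis and uptake list among the 22. Of the 32 expressed genes of that list, 27 were higher in replicate 2 with both vectors, with a median ratio of 1.78. HMGCS1, which makes the precursor that HMG-CoA reductase acts on, had 569 and 1775 CPM in control replicates 1 and 2 and 785 and 1806 CPM in YTHDF1 replicates 1 and 2, with ratios of 3.12 and 2.30. LSS, which closes the sterol ring, had ratios of 2.47 and 2.18, and INSIG1, which holds the SREBP complex in the endoplasmic reticulum, had ratios of 2.40 and 1.93. Genes of the list differed in direction. FADS1, a desaturase gene of fatty acids and not of sterols, had ratios of 0.205 and 0.191. It was the 1 gene of the list at least 2.5 times lower in replicate 2 with both vectors. SREBF2 had ratios of 0.907 and 0.937. The sterol regulatory element, searched as TCACNCCAC, was in 0 of the 14 promoters and in 1.07% of those of expressed genes. The 14 include TMEM97 and ACSS2, while no promoter was available for ACAT2.

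The remaining 10 genes have varied roles. NCR3LG1, the ligand of an activating receptor of natural killer cells, had 18.7 and 54.7 CPM in control replicates 1 and 2 and 20.5 and 55.9 CPM in YTHDF1 replicates 1 and 2. LCP1, an actin-bundling protein of leukocytes that many tumour cells also make, had 28.0 and 80.5 CPM with the control vector and 31.1 and 80.4 CPM with the YTHDF1 vector. Of 16 leukocyte markers, which do not include LCP1, 0 were expressed, their summed level was 7.23 to 8.87 CPM per library, and 7 of them, including CD2, CD3D and NKG7, were at 0 in all libraries.

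DLC1, a GTPase-activating protein, had 22.9 and 66.7 CPM in control replicates 1 and 2 and 24.1 and 70.9 CPM in YTHDF1 replicates 1 and 2. INHBA, the subunit from which activin A is built, had 24.7 and 70.0 CPM with the control vector and 25.7 and 71.3 CPM with the YTHDF1 vector. KRT23, an acidic keratin, had 343 and 892 CPM with the control vector and 348 and 936 CPM with the YTHDF1 vector. Of the other keratins, KRT20 lay just outside the limit and KRT18 had ratios of 1.85 and 2.11, while KRT19 had 1.23 and 1.29 and KRT10 had 0.793 and 0.978. Of 17 expressed genes of the list of keratins and keratinocyte differentiation, 10 were higher in replicate 2 with both vectors, with a median ratio of 1.12. INHBA was 1 of 11 expressed genes of the TGF-beta list, which had a median ratio of 1.00, and DLC1 was 1 of 15 expressed YAP and TEAD targets, which had a median ratio of 1.07.

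PRSS23, a secreted serine protease, had 34.03 and 86.1 CPM in control replicates 1 and 2 and 29.8 and 84.3 CPM in YTHDF1 replicates 1 and 2. PADI2, which converts arginine in proteins to citrulline, had 24.9 and 66.2 CPM with the control vector and 24.6 and 67.0 CPM with the YTHDF1 vector. GLS2, a glutaminase that feeds glutamate into mitochondrial metabolism, had 13.2 and 36.3 CPM with the control vector and 12.2 and 35.4 CPM with the YTHDF1 vector. These are enzymes with unrelated substrates. LRATD1, a protein with a lecithin retinol acyltransferase domain, had 26.8 and 69.3 CPM with the control vector and 26.1 and 75.5 CPM with the YTHDF1 vector. GLS2 overlaps SPRYD4, with ratios of 1.02 and 1.03, and PRSS23 overlaps FZD4, with ratios of 1.40 and 1.27, so reads of these pairs could be split by the counting.

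The vector difference was then read for the same 22 genes. With edgeR's quasi-likelihood test over 17781 genes, 0 of the 22 were higher and 0 were lower with YTHDF1 at a log2 fold change of 0.5 and an unadjusted p of 0.05, against 4 genes higher (0.0225%) and 14 lower (0.0787%) over all genes tested. The log2 fold changes of the 22, YTHDF1 against control with 2 libraries each, ran from −0.20 for IFI44L to 0.10 for ACAT2, with a median of 0.0022 beside 0.0047 over all genes tested. The smallest p was 0.829 and every adjusted p was 1 in edgeR's quasi-likelihood test. In that test 0 of the 22 had an unadjusted p under 0.05, beside 24 of the 17781 genes tested. DESeq2's Wald test also called 0 of the 22, beside 3 higher and 11 lower over all genes at the unadjusted threshold. The standard errors were 0.72 to 1.01, because the choice of genes puts a 2.5-fold spread between the replicates inside each vector. The test had no term for the replicate number and counted that spread as error. Changes of the sizes measured here could not pass this test, and it does not show that the vectors were alike. Over all genes tested, YTHDF1 included, 0 were higher and 0 lower at the same fold change and an adjusted p under 0.05 in edgeR's quasi-likelihood test. In DESeq2's Wald test these counts were 1 and 2.

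Within a replicate number the vectors were compared library against library, as differences of log2 CPM with standard errors from counting alone, which were 0.0088 to 0.081 on that scale. With 1 library of each vector per number these differences have no replicate check. Within replicate 1 the 22 genes ran from −0.19 to 0.33 and their median was 0.014. Of the 22, 12 were above 0 with YTHDF1, beside 52.0% of the expressed genes. Within replicate 2 they ran from −0.28 to 0.12 with a median of −0.0076, and 9 of 22 were above 0, beside 55.0% of the expressed genes. None of the 22 differed by 0.5 or more in size within either number. The sign was the same within both numbers for 13 of 22, of which 6 were above and 7 below 0, beside 49.4% of the expressed genes.

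**Figure D4:**
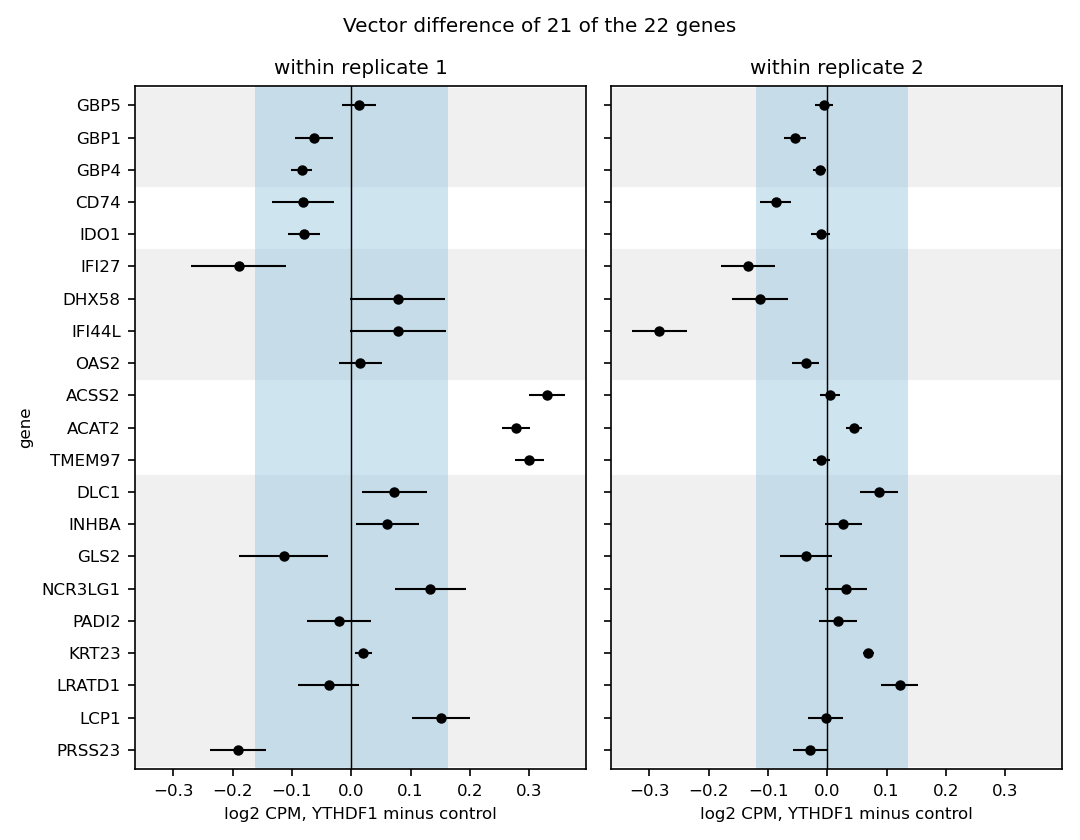
Difference of log2 CPM between the YTHDF1 and control libraries (x) for 21 of the 22 genes within replicate 1 (left) and within replicate 2 (right), with bars for the counting standard error and a blue band for the 5th to 95th percentile of the 9138 expressed genes. ACSS2, TMEM97 and ACAT2 lie above the band at 0.33, 0.30 and 0.28 within replicate 1 and at 0.00, −0.01 and 0.04 within replicate 2, where IFI44L lies lowest at −0.28.

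Within replicate 1 the genes of sterol and acetyl-CoA metabolism had the largest differences of the 22. The difference, YTHDF1 minus control, was 0.33 for ACSS2, 0.30 for TMEM97 and 0.28 for ACAT2, above the 95th percentile of 0.16 of the expressed genes. Within replicate 2 it was 0.0042 for ACSS2, −0.0098 for TMEM97 and 0.044 for ACAT2. Over the whole sterol list, ACAT2 included, 31 of the 32 expressed genes were above 0 and 21 above the 95th percentile within replicate 1. Within replicate 2, 21 were above 0, 1 was above the 95th percentile and 1 was below the 5th. The medians of the list were 0.21 and 0.020, and those of its 31 genes outside the 22 were 0.21 and 0.019. HMGCS1 had 0.46 and 0.025 and INSIG1 had 0.35 and 0.037. Whether the numbers differ in this was not tested, and the level of YTHDF1 was 6.36 times higher in the replicate 1 library. In edgeR's quasi-likelihood test, which counted the gap between the numbers as error, 0 genes of the list passed the vector threshold.

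**Figure D5:**
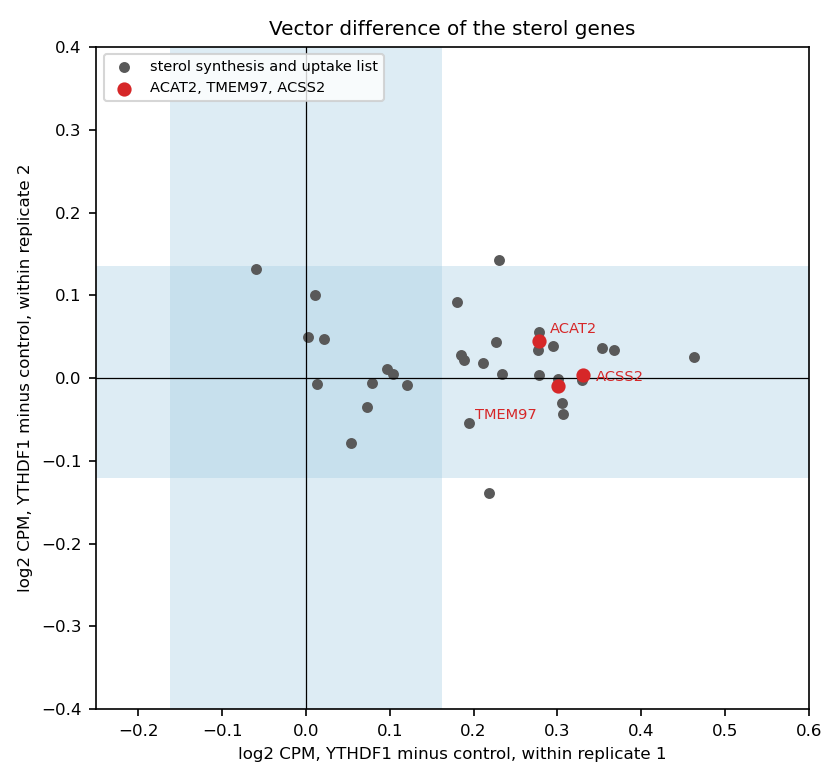
Difference of log2 CPM between the YTHDF1 and control libraries within replicate 1 (x) and within replicate 2 (y) for the 32 expressed genes of the sterol synthesis and uptake list (grey) and for ACAT2, TMEM97 and ACSS2 (red), with blue bands for the 5th to 95th percentile of all expressed genes. Of the 32 genes, 21 lie to the right of the band within replicate 1, and within replicate 2 1 lies above the band and 1 below it.

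Within replicate 2, 0 of the 9 interferon-induced genes were above 0, beside 55.0% of the expressed genes. They ran from −0.28 to −0.0054 with a median of −0.055. GBP5 and IDO1, at −0.0054 and −0.011, lay within their counting standard errors of 0.015 and 0.016, and the rest lay further from 0 than theirs. Within replicate 1, 4 of the 9 were above 0 and 5 were below, beside 52.0% of the expressed genes above 0. In the same libraries the 13 mitochondrially encoded genes were all below 0 with YTHDF1 within both numbers, with medians of −0.19 and −0.28. Their summed level was 58369 CPM in control and 51969 CPM in YTHDF1 replicate 1, and 68481 and 56443 CPM in replicate 2. The part of this in the differences of the 22 genes was not tested. IFI27 was below the 5th percentile of the expressed genes within both numbers, at −0.19 and −0.13 with counting standard errors of 0.081 and 0.046. IFI44L was 0.079 within replicate 1 and −0.28 within replicate 2, with counting standard errors of 0.081 and 0.046. GBP1 was −0.063 and −0.055, CD74 was −0.082 and −0.087, and GBP5 was 0.013 and −0.0054, so the gene with the widest gap between the replicate numbers had 1 of the smallest differences between the vectors. Of the 43 expressed antiviral genes, 30 were above 0 within replicate 1 and 8 within replicate 2, with medians of 0.042 and −0.048. Of the 80 expressed genes of the IFN‐γ list, 38 and 40 were above 0, with medians of −0.0089 and −0.0011. In edgeR's quasi-likelihood test, which counted the gap between the numbers as error, 0 genes of either list passed the vector threshold.

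Among the other genes, PRSS23 was the lowest within replicate 1, at −0.19, below the 5th percentile of −0.16, and it was −0.029 within replicate 2. LCP1 was 0.15 and −0.0027 and NCR3LG1 was 0.13 and 0.032. LRATD1 was highest within replicate 2, at 0.12, under the 95th percentile of 0.14, and it was −0.038 within replicate 1. DLC1, at 0.072 and 0.087, and KRT23, at 0.020 and 0.070, were above 0 within both numbers, and GLS2, at −0.11 and −0.036, was below 0 within both. INHBA was 0.061 and 0.027 and PADI2 was −0.021 and 0.018.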

How the data were processed

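The authors deposited raw counts, whole numbers of reads per gene, for 4 libraries (SNU638 cells, control or YTHDF1 vector, 2 replicates each), made with a stranded poly(A) kit. The submitters' processing notes name Trimmomatic, HISAT2 and GRCh38, and the counting tool, strand setting and annotation release are not given in the sources used here. Samples were grouped by their labels. At totals of 57398137 to 60864942 counts, the lowest count of a member in a library was 603. Standard errors from counting leave out every other error, and without molecular identifiers the reads may repeat the same molecules.

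CPM are counts scaled to a library total of 1000000. Vector groups were compared in R 4.3.3 with edgeR 4.0.16 (filterByExpr, TMM, quasi-likelihood test without a block, Benjamini-Hochberg over 17781 genes), after tests on simulated data. DESeq2 1.42.0, other filters and library sizes, a replicate block, left-out libraries and other limits of the rule were alternatives. Of the 22 genes 21 are named, and 1 is counted but not reported here. Named besides them are YTHDF1, the guanylate-binding protein family, the 3 genes just outside the ratio limit and, chosen after their values were seen, genes of the lists, overlapping genes and VCAN. The members and the 35 gene lists were chosen with earlier results of these data known, and the roles, the interferon and sterol motifs and the NF-kB pattern after the members were seen. RefSeq tables of GRCh38.p14 gave positions and promoters, matched by gene ID. Figures were drawn with matplotlib 3.10.9 in Python 3.11.15.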

Additional observations from a re-analysis of the deposited data

How the results depend on the processing

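The number of genes that met the rule was 22, and it was 24 on TMM-scaled library sizes, with GBP2 and TRIM22 added, 31 at 5 CPM and 16 at 20 CPM. It was 82 at a ratio of 2 and 4 at a ratio of 3, where GBP5, CD74, IFI27 and GBP1 remained. The count of the 22 called higher or lower with YTHDF1 was 0 under every alternative with all 4 libraries. With no fold change threshold it was 0 in the main fit and in each of these alternatives except the replicate block, which is described below. Without the counts of YTHDF1 in the library size, an alternative added after seeing the data, the median difference within replicate 1 was 0.038 in place of 0.014. Over all genes, the counts higher and lower at the unadjusted threshold were 4 and 14, and 32 and 50 without a filter on low counts.

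With the replicate block, GBP5 was 0.0069, with its sign reversed, 2 of the 22 had an unadjusted p under 0.05, which were ACAT2 and ACSS2, and the smallest adjusted p of the 22 in edgeR's quasi-likelihood test was 0.9995. Over all genes the replicate block gave 58 higher and 134 lower at the unadjusted threshold, and 1 and 7 adjusted. The deviations of the replicates numbered 1 from their group means had r = 0.875 between the vectors across 17781 genes, which are not independent replicates, and with only 2 pairs and no meaning given to the numbers the block stayed an alternative.

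With 1 library left out 1 vector lacks a replicate number, so that the gap between the numbers enters the fit, where a lone library is assumed to vary like the other group. The median log2 fold change of the 22 then ran from −0.95 to 0.98, and each left-out library reversed 11 of the 22 genes. The lowest and highest log2 fold changes were, by gene, ACAT2 −0.86 to 1.25, ACSS2 −0.92 to 1.34, CD74 −1.40 to 1.24, DHX58 −0.98 to 1.00, DLC1 −0.92 to 1.08, GBP1 −1.09 to 0.98, GBP4 −1.01 to 0.91, GBP5 −1.32 to 1.34, GLS2 −1.04 to 0.88, IDO1 −0.97 to 0.87, IFI27 −1.22 to 0.89, IFI44L −1.09 to 0.98, INHBA −0.90 to 1.00, KRT23 −0.85 to 0.93, LCP1 −0.82 to 1.02, LRATD1 −0.90 to 0.95, NCR3LG1 −0.86 to 1.06, OAS2 −0.87 to 0.87, PADI2 −0.91 to 0.91, PRSS23 −1.03 to 0.77 and TMEM97 −0.81 to 1.18.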

Other observations

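A further 15 protein-coding genes had both ratios at 2.5 or more and at least 10 CPM in a library, but were under 10 CPM in both replicate 1 libraries. They included interferon-induced genes. IFI16, a sensor of DNA, had 3.92 and 15.3 CPM in control replicates 1 and 2 and 5.39 and 15.6 CPM in YTHDF1 replicates 1 and 2. CXCL10, a chemokine that attracts T cells, had 3.72 and 11.5 CPM with the control vector and 4.27 and 10.7 CPM with the YTHDF1 vector. MX2, a dynamin-like antiviral GTPase, had 3.36 and 10.0 CPM with the control vector and 3.26 and 8.56 CPM with the YTHDF1 vector.

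The widest ratio was that of ERVV-2, an envelope gene of an endogenous retrovirus, with 0.273 and 13.1 CPM in control replicates 1 and 2 and 0.427 and 10.99 CPM in YTHDF1 replicates 1 and 2. PLA2G3, a secreted phospholipase, had 3.69 and 21.7 CPM with the control vector and 3.40 and 21.0 CPM with the YTHDF1 vector. DCLK1, a kinase related to doublecortin, had 9.67 and 38.1 CPM with the control vector and 9.11 and 41.0 CPM with the YTHDF1 vector. The other genes were PMEPA1, STAP2, TNFRSF19, CALCRL, EPHA4, ZNF117, CX3CL1, TMEM30B and TMEM154. These values chose the genes and are given with no test.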
